A study of Mus musculus with 16 samples.

Results

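Genes of the basal stem cells and neuronal progenitors of the mouse olfactory epithelium were followed across 4 groups of sorted cells. The list named 9 genes by symbol, and a gene with several probe sets stands by the brightest of them. Of the 9, 8 had a probe set annotated to them, among 19505 genes measured. These were Krt5, Krt14, Krt15, Trp63, Neurog1, Kit, Lgr5 and Insm1, each with 1 probe set, and Neurod1 was not analysed here. The rule that lists the genes uses names alone, not a threshold on measured values, but the genes were chosen with earlier results of these data known.

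The animals were S100a5-tauGFP mice of both sexes, 7 to 12 weeks old, in which the S100a5 locus, active in olfactory sensory neurons, drives a green fluorescent protein (GFP). The 24 mice formed 8 pools of 3. Every mouse, controls included, carried the reporter and was kept for 40 h under a clean airflow of 3.1 L per min. After 26 h, odour of cigarette smoke (4 pools) or filtered air as vehicle (4 pools) was given for 10 s at intervals of 20 min. Cells of the mucosa were then separated by fluorescence into GFP+ and GFP- fractions, and each fraction was measured on a Clariom S array, which gave 4 groups of 4 arrays named vehicle GFP-, vehicle GFP+, smoke GFP- and smoke GFP+.

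The olfactory epithelium replaces its sensory neurons throughout life. Horizontal basal cells, a mostly quiescent reserve that expresses the keratins 5 and 14 and the transcription factor p63, lie on the basal lamina. Above them lie the globose basal cells, which divide and pass through a series of basic helix-loop-helix (bHLH) transcription factors on the way to immature and then mature neurons. As the reporter gene belongs to sensory neurons, the comparison of GFP+ with GFP- cells asks in which fraction the RNA of the stem and progenitor cells lay, and the comparison of smoke with vehicle asks whether the odour pulses moved it.

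Values are the deposited ones, on a log2 scale, so a difference of 1 is a 2-fold change on that scale. Array medians were 7.87 to 7.96 in GFP+ and 8.19 to 8.29 in GFP- cells, and correlations between arrays of a group were 0.988 to 0.995 across genes, which are not independent replicates. S100a5 was 1.21 higher in GFP+ than in GFP- cells of vehicle pools and 1.15 higher in smoke pools (SE 0.14 each, adjusted p = 2.88e-06 and 6.45e-06). Between exposures, smoke minus vehicle, it differed by 0.62 in GFP- and 0.56 in GFP+ cells (SE 0.14 each, limma adjusted p = 0.179 and 0.364). Whether smoke changed which cells entered the GFP+ fraction was not tested. Omp, the marker of mature olfactory neurons, measured 18.1 to 18.3 throughout, close to the highest value in the data, so the GFP- fraction held mature neurons too. As a reference for low values, the 95th percentile of the 321 vomeronasal receptor genes, which the main olfactory epithelium should lack, was taken on each array. It ran from 6.14 to 6.78, with group means of 6.18 in vehicle GFP-, 6.46 in vehicle GFP+, 6.26 in smoke GFP- and 6.57 in smoke GFP+ cells. This reference level compares different probe sets and is no limit of detection. In these mixed fractions, fewer cells of a type and less RNA per cell cannot be told apart. Each replicate is a pool of mice, and the limma p-values rest on the spread between arrays of a group, each from a different pool. The fractions of a pool were fitted as independent arrays.

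Kit, Insm1 and Neurog1 were lower in GFP+ than in GFP- cells of both exposures. The 4 horizontal basal cell genes and Lgr5 lay near or below the vomeronasal level in every group. In vehicle pools 3 of the 8 genes passed at an adjusted p of 0.05, all lower in GFP+ cells, where 39.6% of all genes passed, 15.4% as lower and 24.2% as higher. In smoke pools 4 of the 8 passed, 3 lower and 1 higher, against 32.7% of all genes, 14.4% as lower and 18.3% as higher. The share of the 8 genes that passed is therefore near that of all genes in vehicle pools. The median of the 8 differences (GFP+ minus GFP-) was -0.13 in vehicle and 0.06 in smoke pools, beside 0.17 and 0.15 over all genes. With each array shifted to the same median, the median over all genes rose to 0.51 and 0.47, and the 8 genes then split into 3 higher and 2 lower in vehicle pools and 3 higher and 3 lower in smoke pools. Of all genes, 65.7% then passed as higher and 11.6% as lower in vehicle pools, and 62.4% and 10.7% in smoke pools. The higher share of all calls moved from 61.2% to 85% in vehicle and from 56.1% to 85.3% in smoke pools under that scaling.

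**Figure D1:**
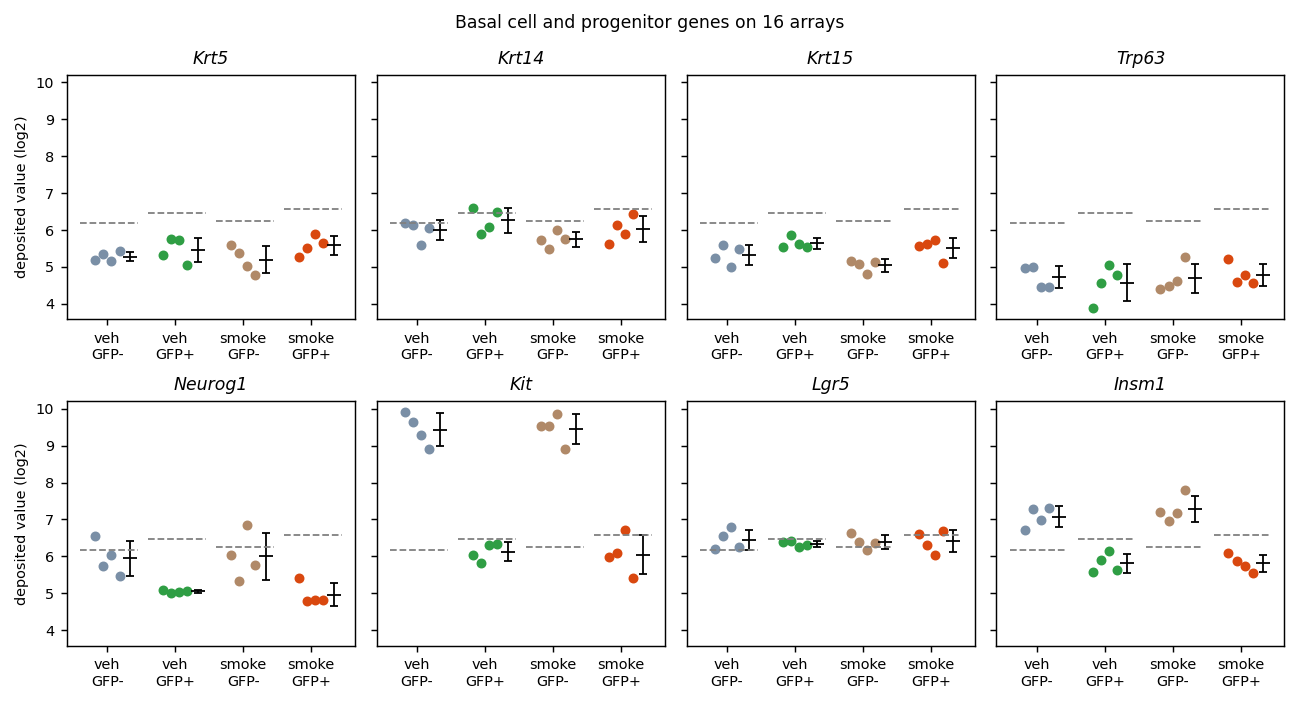
Deposited log2 values of the 8 genes on 16 arrays (points, replicates 1 to 4 from left to right in each group, with replicates having no order), the mean ± SD of each group of 4 (black) and the group mean of the vomeronasal reference level (dashed). Kit and Insm1 lie above the dashed line in all GFP- arrays, while Krt5, Krt15 and Trp63 lie below it in all 16.

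Kit encodes the receptor tyrosine kinase for stem cell factor, which marks globose basal cells of the neuronal lineage and is also a hallmark of mast cells. Its values were 9.91, 9.64, 9.28 and 8.90 in vehicle GFP- cells and 6.03, 5.81, 6.32 and 6.34 in vehicle GFP+ cells. In smoke pools they were 9.53, 9.54, 9.87 and 8.90 in GFP- cells and 5.97, 6.08, 6.71 and 5.42 in GFP+ cells. Every GFP- array was above every GFP+ array of the same exposure, with gaps of 2.56 and 2.19 between the groups. The group means were 9.43 ± 0.44 (SD, n = 4) and 6.13 ± 0.25 in vehicle, and 9.46 ± 0.41 and 6.05 ± 0.53 in smoke pools.

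Kit was lower in GFP+ cells by a log2 difference of -3.31 in vehicle pools (SE 0.27, adjusted p = 4.19e-08) and -3.41 in smoke pools (SE 0.27, adjusted p = 3.28e-08). Both GFP+ means lay below the vomeronasal level, so the change is better given as a bound. With GFP+ values under the level raised to it, Kit was at least 7.85-fold lower in vehicle and at least 7.09-fold lower in smoke GFP+ cells. Here and below, such a bound is a point estimate from group means and takes no account of the spread between pools. The 95% CI of the Kit difference without raised values was -3.87 to -2.75 in vehicle and -3.97 to -2.85 in smoke pools. Within pools, the GFP+ array was below the GFP- array of the same pool in 8 of 8 pools, by 2.56 to 3.88. Swapping fractions within the 4 pools of an exposure gave an exact two-sided permutation p of 0.125, the lowest that 4 pools can give, in each exposure.

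Insm1, a zinc finger transcription factor of late dividing neuronal progenitors, was also lower in GFP+ cells of both exposures. It measured 6.72, 7.29, 6.99 and 7.31 in vehicle GFP- cells and 5.59, 5.90, 6.14 and 5.64 in vehicle GFP+ cells. In smoke pools it measured 7.19, 6.96, 7.17 and 7.80 in GFP- cells and 6.09, 5.89, 5.74 and 5.54 in GFP+ cells. The fractions did not overlap in either exposure. The difference (GFP+ minus GFP-) was -1.26 in vehicle (SE 0.19, adjusted p = 5.55e-05) and -1.47 in smoke pools (SE 0.19, adjusted p = 1.27e-05). All 8 GFP- arrays were above the vomeronasal level of their array and all 8 GFP+ arrays below it, which gives bounds of at least 1.53-fold and 1.64-fold lower in GFP+ cells. Insm1 was lower in the GFP+ fraction in 8 of 8 pools, by 0.86 to 2.26.

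Neurog1, the bHLH factor that commits progenitors to the neuronal fate, was low throughout. Its values were 6.55, 5.75, 6.03 and 5.45 in vehicle GFP- cells against 5.10, 5.003, 5.04 and 5.05 in vehicle GFP+ cells. They were 6.03, 5.34, 6.85 and 5.78 in smoke GFP- cells against 5.41, 4.80, 4.83 and 4.81 in smoke GFP+ cells. The vehicle groups did not overlap, while smoke GFP+ replicate 1 lay above smoke GFP- replicate 2. The difference was -0.90 in vehicle (SE 0.27, adjusted p = 0.0141) and -1.04 in smoke pools (SE 0.27, adjusted p = 0.00724), and 8 of 8 pools had the lower value in GFP+ cells, by 0.40 to 2.02. Only vehicle GFP- replicate 1 and smoke GFP- replicate 3 exceeded the vomeronasal level of their array, and all 4 group means were below it, so no fold is given. The vehicle call was lost without vehicle GFP- replicate 1 (-0.69, adjusted p = 0.0523), without the first pool of both exposures (-0.71, adjusted p = 0.0811) and with equal array medians (-0.55, adjusted p = 0.0646).

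**Figure D2:**
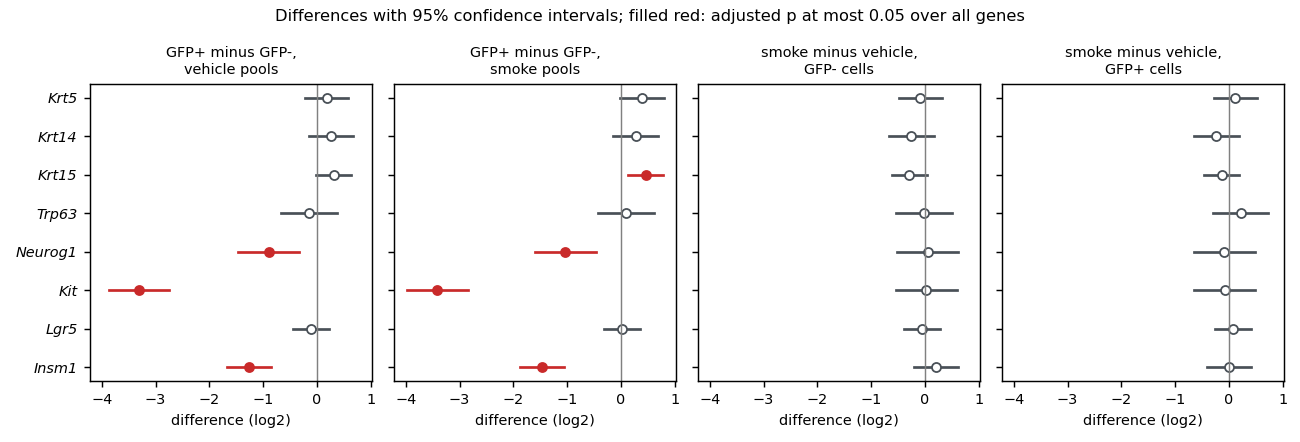
Log2 differences of the 8 genes in 4 comparisons (points) with 95% confidence intervals from the limma fit to 16 arrays (lines); filled red points have an adjusted p of at most 0.05 over all genes. Kit, Insm1 and Neurog1 lie left of 0 in both comparisons of GFP+ with GFP- cells, and every interval in the comparisons of smoke with vehicle spans 0.

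Promoter sequence from RefSeq (GRCm38.p6) was matched for 5 of the 9 listed genes. The 250 bases before the start site of Kit and Neurog1, 2 of the genes that were lower in GFP+ cells, are shown 5′ to 3′ on the strand of the gene, with motif matches in capitals. Kit had 2 entries, of which the first is shown.
Kit, chr5:75574737-75574986, plus strand: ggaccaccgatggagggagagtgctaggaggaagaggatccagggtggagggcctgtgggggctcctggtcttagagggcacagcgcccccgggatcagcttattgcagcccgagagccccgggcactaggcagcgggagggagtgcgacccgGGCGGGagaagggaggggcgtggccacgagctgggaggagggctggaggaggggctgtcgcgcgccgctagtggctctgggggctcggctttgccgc
Neurog1, chr13:56252181-56252430, minus strand: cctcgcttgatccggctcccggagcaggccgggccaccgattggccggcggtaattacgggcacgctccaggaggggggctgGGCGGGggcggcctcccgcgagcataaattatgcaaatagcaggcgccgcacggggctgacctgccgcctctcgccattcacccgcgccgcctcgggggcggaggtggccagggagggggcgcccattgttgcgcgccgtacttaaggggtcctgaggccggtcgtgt
The horizontal basal cell keratin Krt5, whose arrays stayed below the vomeronasal level, is set beside them. The entry matched to Krt14 lies inside the annotated gene and is not shown.
Krt5, chr15:101712906-101713155, minus strand: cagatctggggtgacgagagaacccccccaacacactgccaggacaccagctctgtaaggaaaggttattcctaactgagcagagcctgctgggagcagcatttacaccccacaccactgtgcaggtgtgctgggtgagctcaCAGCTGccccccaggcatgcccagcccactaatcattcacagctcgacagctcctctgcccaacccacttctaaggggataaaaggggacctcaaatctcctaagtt
Both strands were searched for the E-box forms CAGCTG and CAGATG, variants of the site that bHLH factors bind. The GC-rich hexamer CCCGCC and the TATA box TATAAA were searched as well. The Kit and Neurog1 windows held 1 CCCGCC each, starting 97 and 168 bases before the start site, and neither held an E-box of these forms or the TATA box. The Krt5 window held 1 CAGCTG, starting 107 bases before the start site. GC content was 70.8% for Kit and 71.2% for Neurog1, against 56.0% for Krt5. Of the 32851 RefSeq promoter windows of that length, 32.5% held CCCGCC, 13% CAGCTG, 14.4% CAGATG and 12.4% TATAAA. A match describes the letters of the window and is not a measured site.

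The horizontal basal cell genes gave values at which no cell source can be read. Krt5 and Krt14 encode the keratin pair of basal epithelial cells, Krt15 encodes another type I basal keratin and Trp63 encodes p63, the transcription factor that holds horizontal basal cells in reserve. Over the 16 arrays Krt5 ran from 4.78 to 5.90 (median 5.36), Krt15 from 4.80 to 5.85 (median 5.51) and Trp63 from 3.88 to 5.28 (median 4.60), and on 0 of 16 arrays did any of these 3 exceed the vomeronasal level of its array.

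Krt14 came nearest to the reference, with values of 6.20, 6.15, 5.59 and 6.06 in vehicle GFP-, 6.59, 5.88, 6.09 and 6.48 in vehicle GFP+, 5.72, 5.49, 6.01 and 5.76 in smoke GFP- and 5.61, 6.15, 5.89 and 6.43 in smoke GFP+ cells. It exceeded the level of its array on 3 of 16 arrays, all from vehicle pools, and the 4 groups overlapped.

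Of the 4 genes, 1 passed in 1 comparison of the fractions. Krt15 measured 5.16, 5.07, 4.80 and 5.13 in smoke GFP- cells and 5.56, 5.61, 5.72 and 5.11 in smoke GFP+ cells. The groups overlapped through smoke GFP+ replicate 4. The difference was 0.46 (SE 0.15, adjusted p = 0.0310), with both means below the reference level. The median of the vomeronasal receptors themselves was 0.23 higher in smoke GFP+ than in smoke GFP- cells and that of all genes 0.15 higher. The call was lost without smoke GFP- replicate 2 (adjusted p = 0.0552) or 3 (0.101), or without smoke GFP+ replicate 1 (0.0658), 2 (0.0756) or 3 (0.0921). It was also lost with the 8 smoke arrays alone (0.0541) and without the first pool of both exposures (0.092). In vehicle pools Krt15 differed by 0.31 (SE 0.15, adjusted p = 0.123).

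Krt5 differed by 0.18 in vehicle and 0.39 in smoke pools (adjusted p = 0.477 and 0.131), Krt14 by 0.26 and 0.27 (0.310 and 0.302) and Trp63 by -0.15 and 0.09 (0.659 and 0.794). The 3 keratins passed as higher in GFP+ cells of both exposures when every array was given the same median, a scaling that raised all genes together as given above. In smoke pools Krt5 also passed without the first pool of both exposures (0.63, adjusted p = 0.0425) and without smoke GFP- replicate 1 (0.52, adjusted p = 0.0473).

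Lgr5, a receptor for R-spondins found on cycling globose basal cells, passed in no comparison. It measured 6.20, 6.55, 6.79 and 6.26 in vehicle GFP-, 6.40, 6.41, 6.25 and 6.30 in vehicle GFP+, 6.62, 6.40, 6.17 and 6.37 in smoke GFP- and 6.61, 6.30, 6.04 and 6.70 in smoke GFP+ cells. All 4 groups overlapped, around the vomeronasal level of 6.14 to 6.78. Lgr5 exceeded the level of its array on 3 of 4 vehicle GFP- and 4 of 4 smoke GFP- arrays. In GFP+ cells it did so on 0 of 4 vehicle and 1 of 4 smoke arrays, where the group means of the level were higher. The difference (GFP+ minus GFP-) was -0.11 in vehicle pools (95% CI -0.44 to 0.23, adjusted p = 0.610) and 0.02 in smoke pools (95% CI -0.31 to 0.36, adjusted p = 0.927). The signs of the differences of Lgr5 and Trp63 turned under some scalings and with arrays left out.

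Other genes of the globose basal stage were also lower in GFP+ cells. Over all genes, the shares to set beside this list and those below were 15.4% lower and 24.2% higher in vehicle pools. In smoke pools they were 14.4% and 18.3%. Of 18 measured genes of globose basal cells and intermediate neuronal progenitors, 13 were lower and 0 higher in GFP+ cells of vehicle pools, and 14 and 0 in smoke pools, with medians of -1.22 and -0.92. Nhlh1, a bHLH gene switched on as progenitors leave the cycle, fell from 10.7 in vehicle GFP- to 6.39 in vehicle GFP+ cells (difference -4.34, SE 0.29, adjusted p = 4.32e-09), the latter below the reference level, which makes it at least 17.8-fold lower. Sox11, a transcription factor of newly formed neurons, differed by -2.82 (SE 0.23, adjusted p = 6.28e-08). Nhlh2, a relative of Nhlh1, differed by -2.36 (adjusted p = 8.44e-08) and Mfng, a glycosyltransferase that modifies Notch, by -2.13 (adjusted p = 5.54e-07).

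All 13 measured proliferation genes were lower in GFP+ cells of both exposures, with medians of -2.84 in vehicle and -2.73 in smoke pools. Ube2c, a mitotic ubiquitin-conjugating enzyme, differed by -6.46 in vehicle pools (SE 0.38, adjusted p = 1.01e-09) and Mki67, the antigen Ki-67 of cycling cells, by -6.10 (SE 0.44, adjusted p = 1.05e-08). Ccnb2, a mitotic cyclin, differed by -4.29 and Mcm6, part of the replicative helicase, by -2.57. In vehicle GFP+ cells 7 of the 13 genes lay at or below the vomeronasal level, Ube2c among them, so their differences are not exact, and Ube2c was at least 36.7-fold lower. In vehicle GFP- cells the list mean was 9.60 to 10.1 and in smoke GFP- cells 9.07 to 10.6, so smoke GFP- arrays spread more widely than vehicle arrays.

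Smoke GFP- replicate 3 had both the highest proliferation mean (10.6) and the highest Neurog1 value (6.85) of the GFP- arrays. The second highest proliferation mean (10.1, vehicle GFP- replicate 4) went with Neurog1 at 5.45, the lowest vehicle GFP- value, so the arrays did not keep 1 order.

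The other horizontal basal and basal keratinocyte genes did not separate. Of 18 measured genes, 3 were higher and 3 lower in GFP+ cells in each exposure, with medians of 0.02 and -0.02 beside 0.17 and 0.15 over all genes. Cdh3, P-cadherin, was 1.42 higher in vehicle GFP+ cells (SE 0.21, adjusted p = 5.15e-05) and Jag2, a Notch ligand, 0.82 higher (adjusted p = 0.000248). Icam1, an adhesion molecule of horizontal basal cells and of leukocytes, differed by -1.24 (adjusted p = 0.000319) and the integrin subunit gene Itga6 by -0.83 (adjusted p = 0.000926). Icam1 lay below the level in GFP+ cells, which makes it at least 1.19-fold lower. Itgb4, the integrin partner of Itga6 in hemidesmosomes, lay at 5.20 in vehicle GFP- and 5.22 in vehicle GFP+ cells, and Col17a1 at 4.69 and 4.71, both below the vomeronasal level. These 2 were chosen after their values were seen.

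**Figure D3:**
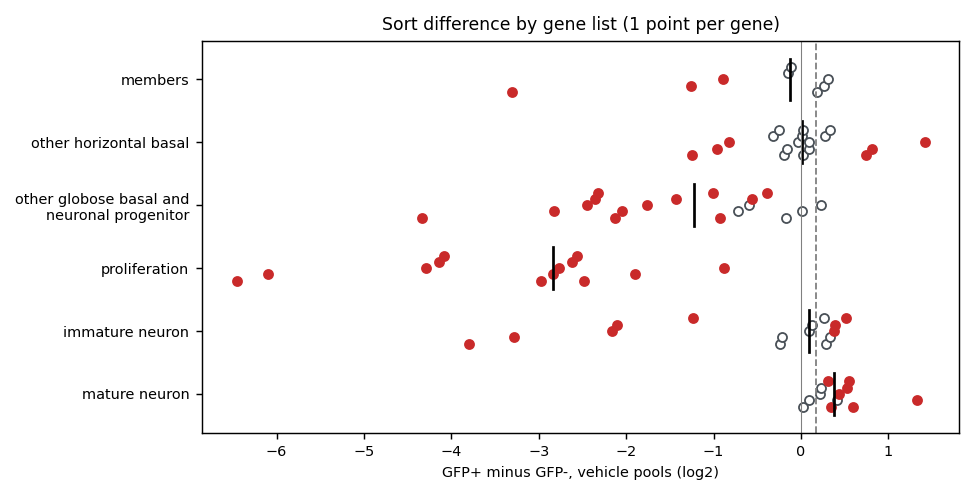
Log2 differences, GFP+ minus GFP- cells of vehicle pools, for the 8 genes and 5 lists (1 point per gene, red where the adjusted p is at most 0.05), with the median of each list (black bar) and of all genes (dashed line, 0.17). All 13 proliferation genes lie left of 0, while the other horizontal basal cell genes lie on both sides.

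Later stages of the lineage were split. Of 15 immature neuron genes, 5 were lower and 3 higher in GFP+ cells of vehicle pools, and 5 and 0 in smoke pools. Gng8, a G protein subunit of immature olfactory neurons, differed by -3.80, Dpysl3 by -3.29, the growth cone gene Gap43 by -2.11 and Stmn1 by -2.16 in vehicle pools (adjusted p = 5.84e-10, 7.34e-10, 1.05e-08 and 3.67e-08). Of 12 mature neuron genes, 7 were higher and 0 lower in vehicle pools, and 4 and 0 in smoke pools. Ano2, the chloride channel of olfactory cilia, was 0.60 higher (adjusted p = 2.05e-05), Slc17a6 0.52, Rtp2 0.55 and Adcy3 0.43 higher. The means of Ano2 and Adcy3 exceeded 16 in all 4 groups, near the top of the scale, where a difference may be understated.

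Markers of some other cell types were lower in GFP+ cells, as Kit and Insm1 were, while 0 of 11 squamous epithelium genes were lower. Of 9 immune genes, 9 were lower in GFP+ cells of vehicle pools and 8 in smoke pools, and the mean of the list was 12.1 to 13.3 on GFP- and 7.32 to 7.78 on GFP+ arrays. Of 10 microvillar cell and ionocyte genes, 10 and 9 were lower, with list means of 9.62 to 9.89 on GFP- and 7.07 to 7.505 on GFP+ arrays. Of 12 sustentacular genes, 10 and 5 were lower, with list means of 11.54 to 12.1 on GFP- and 10.4 to 11.4 on GFP+ arrays. The part of these cells in the differences of Kit and Insm1 was not tested.

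Mast cells, which carry Kit, were checked by 10 genes. Of these, 5 were lower and 2 higher in GFP+ cells of vehicle pools, and 4 and 1 in smoke pools, with list means of 6.07 to 6.48 on GFP- and 5.27 to 5.43 on GFP+ arrays. The list was mixed, with median differences of -0.34 in vehicle and -0.10 in smoke pools and a range of -4.97 to 0.55 in vehicle pools. The naming rule of the lineage lists did not pick the mast cell genes given here. Cpa3, a mast cell carboxypeptidase, fell from 9.61 in vehicle GFP- to 6.23 in vehicle GFP+ cells (difference -3.37, SE 0.36, adjusted p = 1.04e-06), at least 8.07-fold, and Hdc, histidine decarboxylase, from 12.5 to 7.57. The proteases Mcpt4, Cma1, Tpsb2 and Tpsab1 were below the vomeronasal level in all 4 groups, with means of 3.60 to 5.96 in GFP- cells. The part of mast cells in the Kit difference was not tested.

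**Figure D4:**
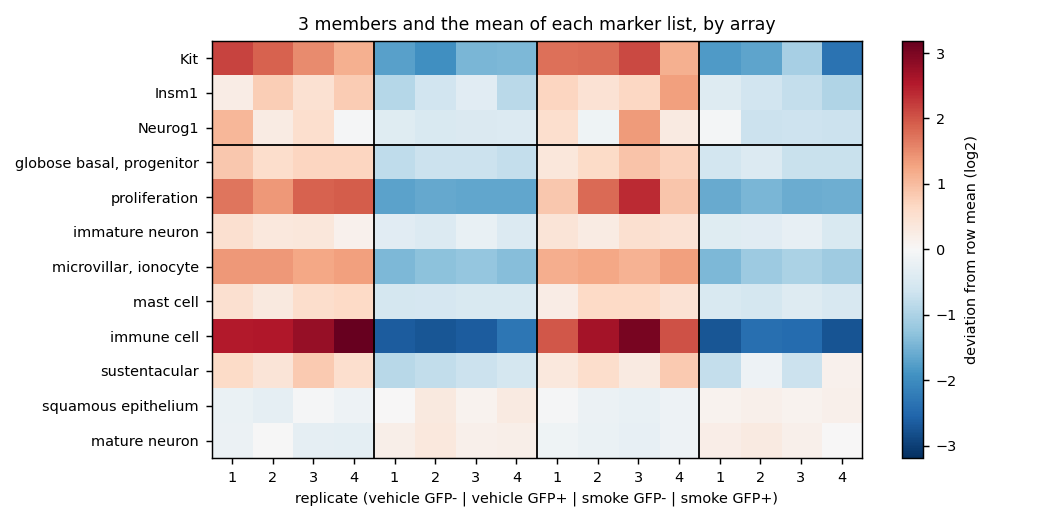
Deviation of each array from the mean over 16 arrays (log2, red above and blue below) for Kit, Insm1 and Neurog1 and for the mean of each marker list, with arrays in the order vehicle GFP-, vehicle GFP+, smoke GFP-, smoke GFP+. Kit, the proliferation list and the immune list are high on all 8 GFP- arrays and low on all 8 GFP+ arrays.

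Smoke against vehicle moved none of the 8 genes past the threshold. In GFP- cells 0 of 8 passed in limma, with 0 at an unadjusted p below 0.05, where 0.128% of all genes passed, 0.0154% as higher and 0.113% as lower. The differences (smoke minus vehicle) ran from -0.29 for Krt15 (SE 0.15, adjusted p = 0.879) to 0.20 for Insm1 (SE 0.19, adjusted p = 0.938). Kit differed by 0.02 (95% CI -0.54 to 0.59) and Neurog1 by 0.05 (95% CI -0.51 to 0.62). An interval of that width leaves room for changes of about 0.6 in either direction, so the comparison does not show that the levels were equal. The lowest exact two-sided permutation p of 4 arrays against 4 is 0.0286, and the values for these 8 genes were 0.171 and above.

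In GFP+ cells 0 of 8 passed in limma, with 0 at an unadjusted p below 0.05, beside 0.108% of all genes, 0.103% as higher and 0.00513% as lower. The differences ran from -0.24 for Krt14 (SE 0.20) to 0.21 for Trp63 (SE 0.25), each with an adjusted p of 0.999. Kit differed by -0.08 (95% CI -0.64 to 0.48) and Insm1 by 0.00 (95% CI -0.40 to 0.40). Both lay below the vomeronasal level in these groups, so a fall there could not be read. The test of the smoke effect in GFP+ against that in GFP- cells called 0 of 8 in limma, with 0 at an unadjusted p below 0.05 and adjusted p of 0.957 and above. Of all genes 0.174% passed there, 0.169% as higher and 0.00513% as lower. The difference of the effects was -0.10 for Kit (95% CI -0.90 to 0.69), -0.20 for Insm1 (95% CI -0.77 to 0.37) and -0.14 for Neurog1 (95% CI -0.94 to 0.66).

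The related lists gave the same counts. Of the 18 other globose basal and progenitor genes, 0 passed for smoke against vehicle in either fraction, with medians of -0.02 in GFP- and 0.11 in GFP+ cells. Of the 13 proliferation genes 0 passed, with medians of -0.24 and 0.14, and of the 18 other horizontal basal genes 0 passed, with medians of -0.05 and 0.02. The immune list, whose 9 genes all had values below 0 in GFP- cells without passing, had a median of -0.28 there. Smoke GFP+ replicates 2 and 4 had sustentacular list means of 11.1 and 11.4, against 10.4 to 10.7 on the other GFP+ arrays. Without smoke pools 2 and 4, the Kit difference became 0.26 in GFP- and 0.21 in GFP+ cells and that of Neurog1 in GFP- cells moved from 0.05 to 0.49 (adjusted p = 0.904), and again 0 of the 8 genes passed in each.

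The genes whose pattern over the 16 arrays was most like that of Kit were Marcks, Ngp and Lcn2 (Pearson r = 0.988, 0.987 and 0.986), Ngp and Lcn2 being granule genes of neutrophils. Those most like Insm1 were the odorant receptors Olfr1406, Olfr1491 and Olfr1109 (0.961, 0.960 and 0.956) and those most like Neurog1 were Mtmr3, Ddah2 and Pltp (0.921, 0.915 and 0.908). These r describe 16 arrays that fall into 2 fractions, and a gene with any difference between the fractions gains from that. Taken over deviations from the group means, the nearest genes were Rcor2, Ccnt1 and Lgi1 for Kit (0.854, 0.848 and 0.842), Olfr1406, EU599041 and Mtmr12 for Insm1 (0.899, 0.844 and 0.805) and Olfr506, Tcof1 and Lpin2 for Neurog1 (0.887, 0.865 and 0.843). Olfr1406 alone stood in both sets of Insm1.

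For the genes near the reference level the nearest patterns over the arrays were Dbh, Rgs8 and Arl16 for Krt5 (r = 0.795, 0.788 and 0.780), Mkln1, Coa3 and Rtn4rl2 for Krt14 (0.806, 0.754 and 0.754) and Rasl11a, Tmem241 and Ube2g1 for Krt15 (0.880, 0.858 and 0.857). For Trp63 they were Bik, Clcn5 and Hmgn1 (0.861, 0.685 and 0.678) and for Lgr5 Hapln3, Dok7 and Gdap10 (0.801, 0.775 and 0.752). Over deviations from the group means the highest r was with Cilp2 for Krt5 (0.881), Mkln1 for Krt14 (0.896), Snap29 for Krt15 (0.845), Bik for Trp63 (0.866) and Cfap65 for Lgr5 (0.886). Krt5, Krt14, Krt15, Trp63 and Neurog1 were themselves outside the genes searched, since their means were below the level in every group.

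Among the 8 genes, Kit went with Insm1 (r = 0.891) and with Neurog1 (0.833) over the 16 arrays, and Neurog1 with Insm1 (0.714). Over deviations from the group means these became -0.34, 0.42 and -0.17, so the arrays of a group did not rank the 3 genes alike. Krt5 and Krt14 had r of 0.025 over the arrays and -0.25 over the deviations, and Krt5 and Krt15 had 0.53 and 0.36.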

How the data were processed

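The deposited table held 1 log2 value per probe set and array for 16 arrays (28846 probe sets), made by the authors with Affymetrix Expression Console, per the submitters' processing notes. The sources used here do not give its version or algorithm, and the series design text names another odour, bourgeonal, where title and labels name cigarette smoke, which was followed. Over all probe sets, sorted values of any 2 arrays differed by at most 0.346, while the medians given are over the named genes. Of 19572 probe sets with 1 gene symbol, the one with the highest mean stood for each of 19505 genes. A model of 4 group means was fitted to all genes and arrays with limma 3.58.1 (lmFit and eBayes) in R 4.3.3. The two-sided p-values were adjusted by Benjamini-Hochberg over all genes at 0.05. The fit was also run on simulated data with independent normal errors, which cannot test the pairing of fractions or the normalization. Fractions with the same number and exposure came from the same pool of mice, and their residuals correlated with r of 0.045 to 0.22. The main fit did not use this pairing.

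The 8 genes are named in full. From each lineage list up to 4 genes past the threshold in vehicle pools were named by smallest p, and for each of the 8 the 3 genes of highest r among genes above the vomeronasal level in at least 1 group. Members and lists were chosen with earlier results of these data known. Array number limits the precision. Alternatives were array scaling, a filter on low genes, the variance model, the arrays fitted, blocks for replicate number and pool, the probe set rule, and arrays or pools left out. Plots used matplotlib 3.10.9 under Python 3.11.15.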

Additional observations from a re-analysis of the deposited data

Results flagged for a closer look

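Of the 32 sets of 4 arrays tested (8 genes in 4 groups), 1 had an array apart from the others by Dixon's criterion, which chance meets in about 1 in 20 sets. Neurog1 in smoke GFP+ replicate 1 was 5.41, against 4.80 to 4.83 on the other 3 arrays of the group, a gap of 0.945 of the whole range. All 4 values lay below the vomeronasal level. Without this array the difference between smoke GFP+ and smoke GFP- cells was -1.19 in place of -1.04 (adjusted p = 0.00484 and 0.00724).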

How the results depend on the processing

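Limits are the 4 arrays a group, values near or below the reference level, and a normalization whose method is unknown. All of the 8 genes but Kit and Insm1 lay near or below that level in every group. The means of Kit and Insm1 lay below it in GFP+ cells of both exposures. Kit and Insm1 kept their direction and their calls in both comparisons of the fractions under every alternative run, with differences of -3.49 to -2.96 and -1.38 to -0.92 in vehicle and -3.63 to -3.09 and -1.59 to -1.14 in smoke pools. The replicate block joins the vehicle and smoke pools of the same number, which are different mice. With it, the counts of the 8 genes called stayed at 3 in vehicle and 4 in smoke pools. No call changed (Kit in vehicle pools -3.31, adjusted p = 1.18e-07). With the pool as a random block in limma, the counts were also 3 and 4 (Kit in vehicle pools -3.31, adjusted p = 1.4e-08). For smoke against vehicle, and for the difference of the effects, 0 of the 8 were called under every alternative run.

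With equal array medians 5 of the 8 genes passed in vehicle and 6 in smoke pools. Of all 19505 genes, 15086 passed in vehicle and 14268 in smoke pools under that scaling, so these counts do not set the 8 genes apart. With genes above the vomeronasal level alone, 2 passed in smoke pools, since that filter removes all but Kit, Insm1 and Lgr5. Values that changed sign all belonged to differences that had not passed, and the cause was not tested. For GFP+ against GFP- cells of vehicle pools, equal medians gave 0.20 for Trp63 and 0.24 for Lgr5, quantile normalization 0.11 for Lgr5, and without the first pool of both exposures Trp63 was 0.17. In smoke pools Trp63 was -0.033 with quantile normalization and -0.14 without the first pools, and without smoke pools 2 and 4 Krt14 was -0.11 and Lgr5 -0.071. For smoke against vehicle, leaving out smoke pools 2 and 4 gave 0.031 for Krt5 in GFP- cells and, in GFP+ cells, 0.0043 for Krt15, 0.074 for Neurog1, 0.21 for Kit and -0.013 for Lgr5, and 0.000360 for the Insm1 difference of the effects. Without the first pools Trp63 was 0.16 in GFP- and -0.15 in GFP+ cells, Krt14 0.0087 and Insm1 -0.17 in GFP+ cells. In those cells Insm1 was -0.0061 with equal medians and -0.016 with quantile normalization.

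With each array left out in turn, signs changed within these ranges. For the fractions they were -0.31 to 0.082 (Trp63) and -0.19 to 0.0047 (Lgr5) in vehicle and -0.046 to 0.29 (Trp63) and -0.074 to 0.15 (Lgr5) in smoke pools. For smoke in GFP- cells they were -0.22 to 0.050 (Krt5), -0.22 to 0.072 (Trp63), -0.23 to 0.27 (Neurog1), -0.15 to 0.21 (Kit) and -0.14 to 0.055 (Lgr5). For smoke in GFP+ cells they were -0.019 to 0.22 (Krt5), -0.015 to 0.38 (Trp63), -0.30 to 0.13 (Kit), -0.023 to 0.20 (Lgr5) and -0.092 to 0.11 (Insm1). For the difference of the effects they were -0.36 to 0.14 (Neurog1) and -0.32 to 0.10 (Kit).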

Other observations

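Genes of stratified squamous epithelium, another tissue with basal keratins at the front of the nasal cavity, were measured as well. Of 11, 7 were higher and 0 lower in GFP+ cells of vehicle pools, where 24.2% of all genes were higher, and 2 and 0 in smoke pools, where 18.3% were, with medians of 0.41 and 0.26 beside 0.17 and 0.15 over all genes and 0.25 and 0.23 over the vomeronasal receptors. Krt10, a keratin of differentiating epidermis, was 0.52 higher (SE 0.15, adjusted p = 0.0124) and Sbsn, suprabasin, 0.41 higher (adjusted p = 0.0171) in vehicle GFP+ cells, the 2 genes of the list above the vomeronasal level in all 4 groups. In vehicle GFP- cells 9 of the 11 genes and in vehicle GFP+ cells 8 lay at or below the vomeronasal level.

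Markers of glands and respiratory epithelium, which also holds basal cells with keratin 5, were mixed. Of 11 measured, 4 were lower and 0 higher in vehicle pools, and 2 and 0 in smoke pools. Those of smooth muscle and myoepithelium had 1 of 6 lower in vehicle pools, and in smoke pools 1 lower and 1 higher. Ensheathing cell genes had 1 of 5 lower in each exposure, endothelial and stromal genes 2 and 1 of 8. The 1 red blood cell gene measured was lower in both. Beside these counts, 15.4% of all genes were lower and 24.2% higher in vehicle pools, and 14.4% and 18.3% in smoke pools.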
